A study of Homo sapiens with 8 samples.

Results

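The transcripts of 786-O cells that had received the 5p strand of the microRNA (miRNA) miR-532 were compared directly with those of 786-O cells that had received its 3p strand. Both transfected RNAs were labelled with Cy5, so each probe was read in the same dye on both sides of the comparison. A gene was taken as measured when at least 1 of its probes was well above background in Cy5 on both arrays, which held for 16710 of the 43317 genes on the array, through 21000 of its 58201 probes. The question was which transcripts differ between cells given one strand and cells given the other.

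The series holds 8 two-colour Agilent arrays with probes of 60 bases, all on 1 slide, on which Cy3 marks mock RNA and Cy5 marks treated RNA. The 2 arrays used here hold 786-O cells given either strand, miR-532-5p or miR-532-3p, each by a transient transfection carried by Lipofectamine RNAiMAX, with the mock described in the labels as cells without transfection. 786-O is an established line of clear cell renal carcinoma that has lost the VHL tumour suppressor, the factor that marks hypoxia-inducible factors (HIF) for destruction. No array had its dyes swapped, and each group held 1 array, so no p-value could be computed, and a single array a side is what limits the precision.

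A miRNA is cut from a hairpin as a duplex, and either strand can be loaded into an Argonaute protein, where bases 2 to 8, the seed, pair with complementary stretches of messenger RNAs and lower their level or translation. The 2 strands of 1 duplex have different seeds and so different sets of possible targets. MIR532 lies in a cluster of miRNA genes on the X chromosome, and its strands have been studied in several carcinomas. The mature sequences, from RefSeq on GRCh38.p14, are printed because the seed, in capitals, is what separates the 2 treatments. The 5p strand lies at chrX:50003167-50003188 and the 3p strand at chrX:50003204-50003225, both on the plus strand.
miR-532-5p: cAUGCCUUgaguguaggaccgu
miR-532-3p: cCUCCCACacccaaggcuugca

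The identity of the cells was read from defining markers. Of 8 markers of kidney carcinoma cells, 8 were measured on both arrays, among them VIM, the filament protein vimentin, with a Cy5 signal of 21872 with the 5p strand and 21474 with the 3p strand. Of 4 urothelial markers none was well above background on both arrays, and of 4 prostate markers 2 were, at normalized Cy5 signals of 7.56 to 20.2. Of 4 leukocyte markers 3 were measured. The defining marker PTPRC was near the lower end of the scale with 9.76 and 9.32, and CD14 had 12.4 and 8.34. CD3E was higher, at 65.7 with the 5p strand and 39.9 with the 3p strand.

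All signals are array units on a linear scale, after subtraction of the local background and quantile normalization between the 2 arrays of a dye. A difference is the log2 signal of the 5p array minus that of the 3p array, so a value below 0 means a lower level with miR-532-5p than with miR-532-3p. A difference alone does not say which strand moved the gene. For that the text gives the log2 ratio of each strand over the mock on its own array (normexp background correction with an offset of 50, then loess), which carries the dye effect of the probe and is drawn towards 0 in dim genes. The Cy5 and Cy3 channels were normalized apart, so a mock signal beside a Cy5 signal is a guide to the level, and the ratio over the mock decides where a sample is said to lie near (within 0.5), above or below it. Signals said to lie around the mocks are so by the order of the printed signals alone. The difference of the 2 Cy3 mock signals serves as the background.

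A bound of 1.5 in size on the log2 scale was used, the size at which the study selected genes lowered by another miRNA. Past it, 127 genes were lower with miR-532-5p (0.76% of the genes measured) and 133 were higher (0.796%), together 260 (1.56%). Past 1.0 the count was 1060 (6.34%). Between the 2 mock channels, 14889 of these genes were measured and 1 was past 1.5 (0.00672%), the gene RBL1 described below. Over genes the differences had an SD of 0.53 in Cy5 and 0.17 between the mocks, and 29.4% of genes were past 0.5 in Cy5 against 1.30% between the mocks. Of the 260 genes, 247 were measured in both mocks and 241 of those had a mock difference within 0.5. The labels do not say whether the 2 mock channels hold 1 RNA extract or different cultures, so the mock difference measures the arrays and may leave out the spread between cultures.

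The bound of 1.5 is reached by very different numbers of genes when the background is treated otherwise. With normexp and an offset of 50, 24 genes were lower and 17 higher, and without background correction 41 and 44. Centring the 2 Cy5 channels on their medians, in place of quantile normalization, gave 111 lower and 188 higher genes, so that lower genes made up 37.1% of those past 1.5 against 48.8%. The share past 1.5 ranged from 1.27% to 1.99% over 4 classes of mean signal, from below 20 to above 200, while the SD of the mock difference fell from 0.25 in the dimmest class to 0.079 in the brightest.

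**Figure D1:**
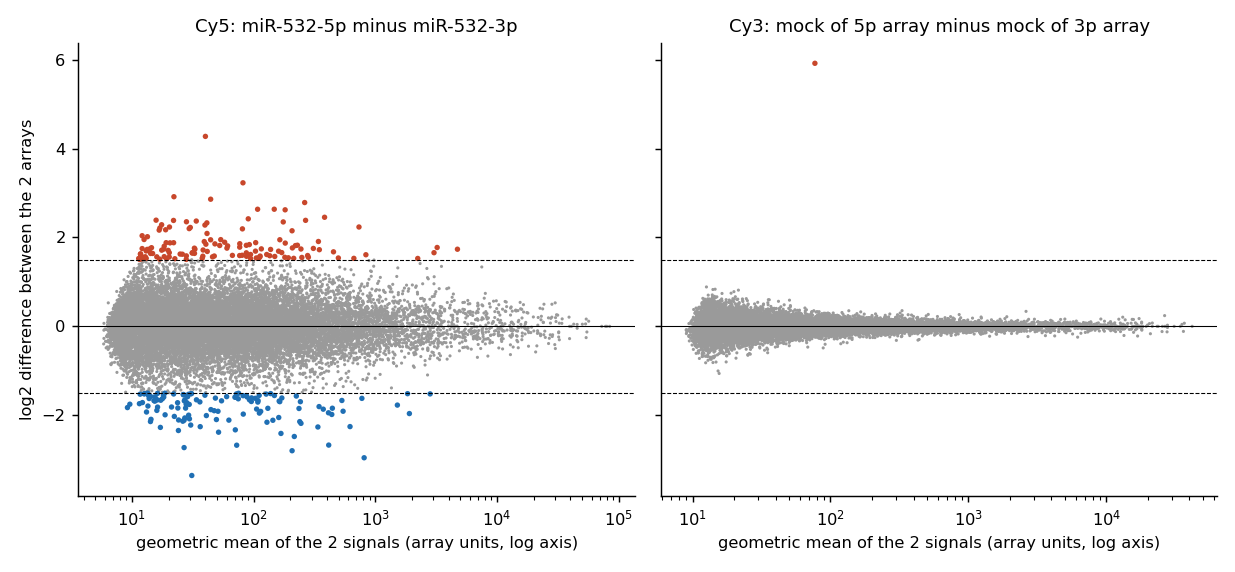
Each point is 1 gene; the vertical axis is the log2 difference between the 2 arrays and the horizontal axis the geometric mean of the 2 signals in array units (log axis), for the Cy5 channels (left, 16710 genes) and the Cy3 mock channels (right, 14889 genes). Dashed lines mark a size of 1.5, past which 127 genes lay below (blue) and 133 above (red) in Cy5 and 1 above in the mocks.

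The same steps were run on the 2 T24 arrays (a bladder carcinoma line), on which the strands of miR-140 can be set against each other. Among 20120 genes, 62 had a lower signal with the 5p strand of miR-140 (0.308%) and 87 a higher one (0.432%), together 0.741%, and the SD over genes was 0.42, with 1 gene of 17021 (0.00588%) past 1.5 between the mocks. The count of genes past 1.5 was therefore higher for the miR-532 strands on fewer measured genes, which is a description of 4 arrays and has no test.

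Of the 15 genes lowest with miR-532-5p, 5 code for proteins of the mitochondrion, a grouping made after the values were seen. The share of such genes among all genes measured was not counted, so no excess can be read from the 5. MRPL14, a protein of the mitochondrial ribosome, was among the 15 highest. SLC25A5, the adenine nucleotide translocator that exchanges ADP for ATP across the inner mitochondrial membrane, had a Cy5 signal of 291 with the 5p strand and 2257 with the 3p strand, against 1969.7 and 1914 in the 2 mocks. Its difference was −2.96, a 7.77-fold lower signal, and its probe lies at chrX:118605131-118605190 (GRCh37, as are all probe positions here). The 5p sample was the low one, since the other 3 channels lay within a narrow range.
SLC25A32, a carrier of folate and FAD, was at 72.8 against 387 (difference −2.41), and SLC25A24, the carrier of ATP-Mg for phosphate, at 114 against 503 (−2.14). CYCS, cytochrome c of the electron transport chain, was at 115 against 522 (−2.18), although its 3 probes ranged from −2.27 to −0.42. MRPL18, a protein of the large mitochondrial ribosomal subunit, was at 221 against 873 (−1.98), with mocks of 1013 and 944. For all 5 genes the mock channels lay within 0.11 of each other on the log2 scale, and for each the 5p array held the low value.

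In another set the 2 strands lay on opposite sides of the mock. PLEKHB2, a pleckstrin homology protein of recycling endosomes at chr2:131907177-131907236, had 164 with the 5p strand and 1046 with the 3p strand, with mocks of 426 and 406. Its ratio over the mock was −1.24 with the 5p strand and 1.05 with the 3p strand, and its 3 probes differed between the strands by −2.71 to −1.68. It was the only gene of those measured in all 4 channels whose ratios were past 1.0 in opposite directions. INHBA, the subunit of activin A, had 966 and 3764 against mocks of 1522 and 1541, which puts the 5p sample below and the 3p sample above the mock. TMED5, a cargo protein between endoplasmic reticulum and Golgi, showed the same order with 91.5 and 510 around mocks of 256 and 232.

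The remaining genes of the 15 lowest were of mixed function. DEPDC1, a protein of dividing cells, had Cy5 signals of 154 and 740 (difference −2.26), and RPA1, the large subunit of the complex that binds single-stranded DNA, 196 and 713 (−1.86). PLK2, a polo-like kinase, was at 280 against 1054 (−1.91), and NCEH1, a neutral cholesterol ester hydrolase, at 210 against 809 (−1.95). ATP13A3, a P5-type transport ATPase, and C11orf31, named SELENOH in RefSeq and coding for a selenoprotein, are described with the seed matches, and CXCL1 with the cytokines. Of the 15 lowest genes, 15 had a ratio over the mock below −0.5 with the 5p strand, and with the 3p strand 11 lay within 0.5 of the mock and 4 above it. The mock difference was at most 0.15 in these genes.

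Highest with miR-532-5p were genes that were low with the 3p strand. DDOST, a subunit of the oligosaccharyltransferase that attaches glycans in the endoplasmic reticulum, had 896 with the 5p strand and 164 with the 3p strand against mocks of 713 and 676 (difference 2.45). PERP, a membrane protein of desmosomes that p53 induces, had 450.5 and 73.2 against mocks of 419 and 387 (2.62). NF2, which codes for merlin, the tumour suppressor upstream of the Hippo kinases, had 1594 and 339 against mocks of 1280.3 and 1379 (2.24), and its 2 probes gave 1.53 and 2.24. The low value was the 3p sample in all 3 genes, with the 5p sample close to the mocks.
The same order held for HSP90B1, the endoplasmic reticulum form of HSP90, with 5964.5 and 1744 against mocks of 4328 and 4691 (1.77). MRPL14, another protein of the large mitochondrial ribosomal subunit, had 269 and 43.3 with mocks of 283 and 269.5 (2.63). HMGN1, a nucleosome-binding protein, had 1463 and 479 with mocks of 1610.0 and 1657 (1.61), with its other probe at 1.5. SURF4, a cargo receptor of the endoplasmic reticulum, had 396 and 77.6 (2.35) at its brightest probe, while its other probe gave −0.03, so the difference rests on 1 probe.

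In 4 further genes the 5p sample was above the mock. HTRA1, a secreted serine protease, had 5397 with the 5p strand and 1711 with the 3p strand, with mocks of 1726.5 and 1761 (difference 1.66), so that the 3p sample was at the mock level. NDRG1, a gene that hypoxia and differentiation induce, had 8641 and 2595 around mocks of 3250.2 and 3592 (1.74). NT5E, the ecto-5′-nucleotidase CD73, had 611 and 117 around mocks of 180 and 195 (2.39), and its other probe gave 1.42. ANGPTL2, a secreted angiopoietin-like protein, had 209 against 39.1 with mocks of 39.0 and 30.8 (2.42). The 3p sample was near the mock in HTRA1 and ANGPTL2 and below it in NDRG1 and NT5E.
Of the remaining high genes, C11orf86 had 250 and 26.7 with mocks of 54.5 and 53.2 (3.23). ITGB3, the beta 3 integrin, had 436 and 98.2 around mocks of 259 and 257 (2.15), and MOXD1, a monooxygenase-like protein, had 661 and 176 around mocks of 486 and 467 (1.91). SCARNA22, a guide RNA of Cajal bodies, had 690.1 and 100.1 around mocks of 421 and 424 (2.79), and SNORA67, a nucleolar guide RNA, had 368 and 59.3 around mocks of 153 and 160 (2.64). In MOXD1 and SCARNA22 the 5p sample was near the mock and the 3p sample below it, and in ITGB3 and SNORA67 the 5p sample was above and the 3p sample below.

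RBL1, which codes for the retinoblastoma relative p107, had the largest difference of all genes measured, 4.27, but its values stand apart. Its brightest probe gave 177 in Cy5 and 600 in the mock channel on the 5p array, and 9.13 and 9.92 on the 3p array. Both channels of 1 array were thus high, the mock difference was 5.92, and the Cy5 difference minus the mock difference was −1.65. The other probe of RBL1 gave −0.98, so no direction is given for this gene.

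**Figure D2:**
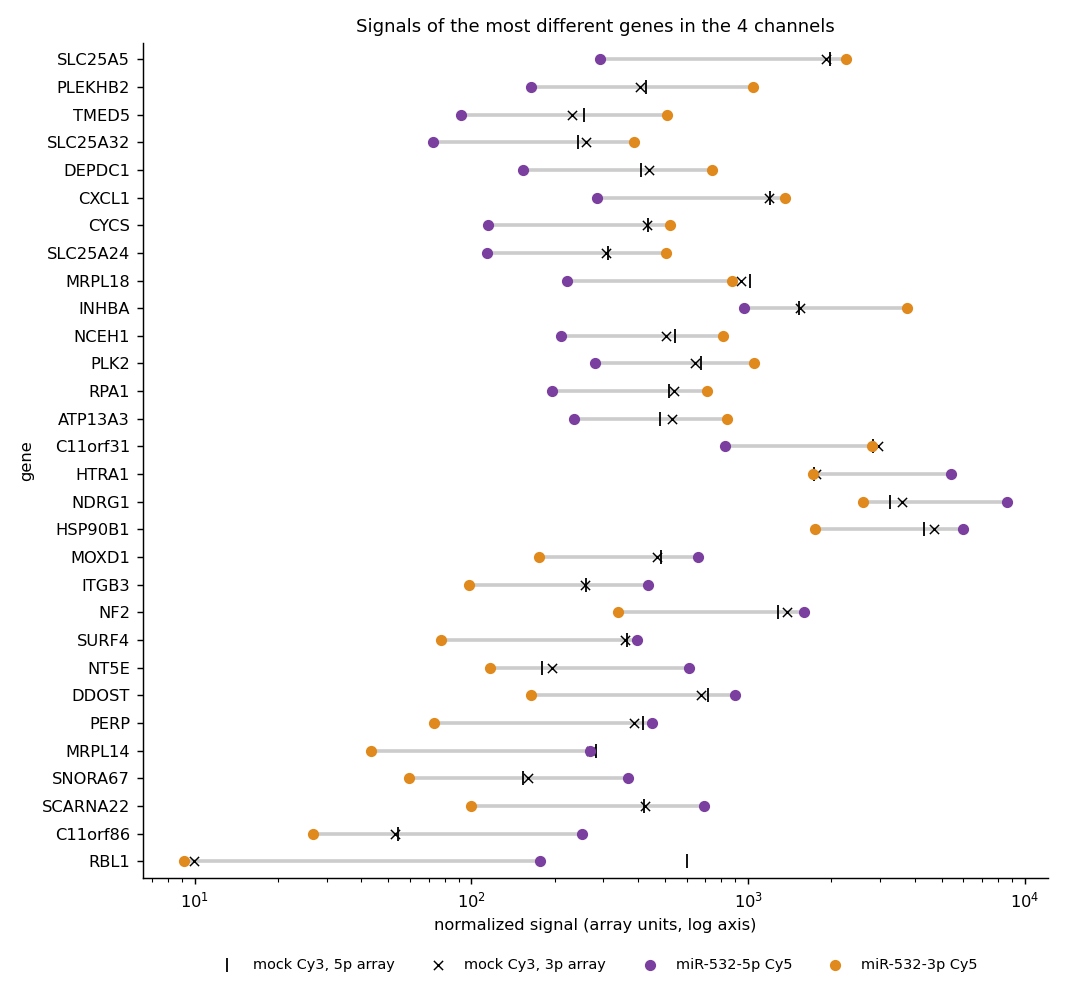
Normalized signal in array units (log axis) of the 15 genes lowest and the 15 highest with miR-532-5p, ordered by their difference: purple points are Cy5 with miR-532-5p, orange points Cy5 with miR-532-3p, and the bar and cross the mocks of the 5p and 3p arrays. The 2 mocks lie together in every gene but RBL1, from which the 5p point departs to the left in the upper part and the 3p point in much of the lower part.

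Which strand a difference lay with was counted over the called genes measured in all 4 channels, at a size of 0.5 for the ratio over the mock. Of 127 genes lower with miR-532-5p (0.853% of the 14889 genes so measured), 49 were down with the 5p strand and near the mock with the 3p strand, 12 were near the mock with the 5p strand and up with the 3p strand, 10 were down with one and up with the other, and 56 were within 0.5 on both arrays. Of 120 genes higher with miR-532-5p (0.806%), 60 were near the mock with the 5p strand and down with the 3p strand, 21 were up with the 5p strand alone, 7 were up with the 5p strand and down with the 3p strand, and 31 were within 0.5 on both. The remaining gene was RBL1. Over all genes measured in 4 channels, 3.82% were down and 3.85% up past 0.5 with the 5p strand, and 3.92% down and 1.79% up with the 3p strand. The most common pattern past 0.5 was thus a gene down with 1 strand and near the mock with the other, in both directions of the comparison. The offset of 50 draws dim genes inside 0.5, which is a property of that ratio.

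Genes that both strands moved alike have a small difference here and cannot be found from it. Past 1.0 over the mock in the same direction on both arrays were 3 higher and 4 lower genes. On a single array, 0.463% of genes were below −1.0 and 0.383% above 1.0 with the 5p strand, and 0.551% and 0.101% with the 3p strand. HMOX1, the haem oxygenase of the antioxidant response, had Cy5 signals of 3584 with the 5p strand and 3419 with the 3p strand against mocks of 424 and 414, and its difference between the strands was 0.07, below the SD of the mock difference. DDAH1, an enzyme that degrades methylarginines, had 459.7 and 479.8 against mocks of 176 and 169 (−0.06), and ZMPSTE24, the protease that processes prelamin A, 261 and 291 against 553 and 565 (−0.16). HMGA2, an oncofetal chromatin protein, had 716 and 348 against mocks of 110 and 111, so the signal with the 5p strand was 2.06-fold that with the 3p strand (1.04), but its 3 probes ranged from −0.09 to 1.04. CD24, a small mucin-like surface protein, was low with both strands, at 522 and 1197 against mocks of 2374 and 2330.1, and lower with the 5p strand (−1.20). Against an untransfected mock, a change shared by both strands cannot be told apart from an effect of transfection itself.

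**Figure D3:**
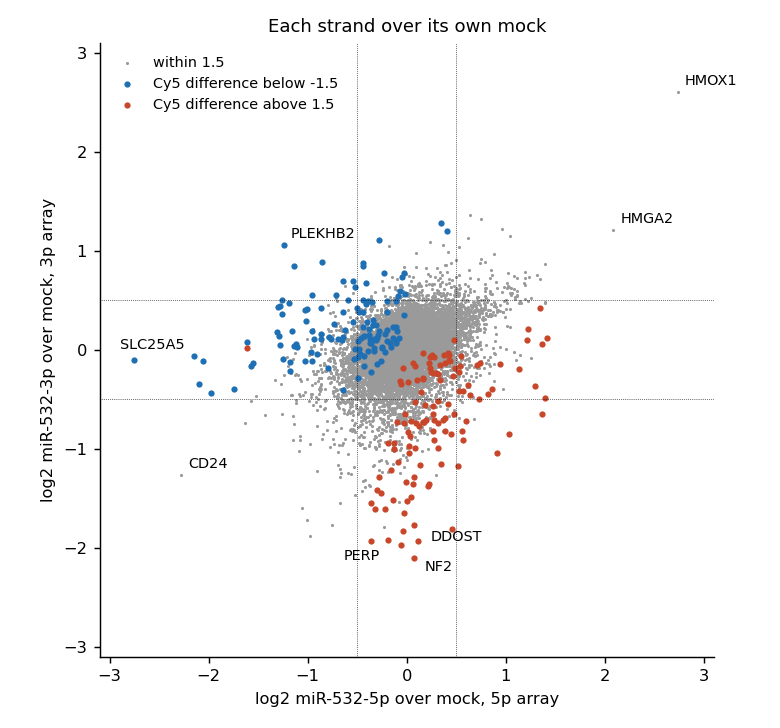
Each point is 1 gene measured in all 4 channels, with the log2 ratio of miR-532-5p over mock on the horizontal axis and of miR-532-3p over mock on the vertical axis; blue and red mark genes whose Cy5 difference between the strands is below −1.5 or above 1.5, and dotted lines mark 0.5 in size. Blue genes spread to the left and red genes downwards, while HMOX1 (2.74 and 2.60) lies on the diagonal.

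The probes themselves hold a short stretch of each transcript, and these were searched for the complement of each seed, read on the transcript strand. The 7 letters for the 5p strand are AAGGCAT, which 0.486% of all 58201 probes hold, and for the 3p strand GTGGGAG, which 0.411% hold. Genes whose probe holds the 5p match alone (74) had a median difference of −0.36, with 54 below 0, and genes whose probe holds the 3p match alone (66) had a median of 0.41, with 51 above 0. The 16570 genes with neither had a median of 0.01, with 48.7% below 0, and no measured gene held both. The medians of the mock difference in the 2 matched classes were within 0.01 of 0.
Past 1.5, 5 of the 74 genes with a 5p match were lower with miR-532-5p and 0 were higher, against 0.73% and 0.779% of genes with neither match. Of the 66 genes with a 3p match, 4 were higher and 1, TERT, the catalytic subunit of telomerase, was lower (23.3 against 85.3). Over the mock on its own array, 17 of 65 genes with a 5p match were below −0.5 with the 5p strand and 2 with the 3p strand. Of 57 genes with a 3p match, 2 were below −0.5 with the 5p strand and 9 with the 3p strand. Among genes with neither match the shares were 3.72% and 3.87%. The genes matched to a strand were thus more often low in the cells that received it, in both directions of the comparison. A match in a probe is a description of these letters and not a shown site, and most of each transcript lies outside the probe.

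The matched stretches of 4 genes per strand, among those of largest difference once 50 was added to each signal, are shown with 7 bases on each side where the probe has them, the match in capitals. For the 5p strand they are C11orf31 at chr11:57510452-57510472 (plus strand), ATP13A3 at chr3:194123490-194123510 (minus), UQCRC2 at chr16:21994601-21994621 (plus) and BAG2 at chr6:57049478-57049498 (plus). Whether these stretches are coding or untranslated was not analysed here.
C11orf31: ctctagtAAGGCATtgtaaaa
ATP13A3: tgtcaaaAAGGCATacattca
UQCRC2: gtaaaatAAGGCATaaatgca
BAG2: caatgttAAGGCATctgtatc
For the 3p strand they are MET at chr7:116438298-116438318 (plus), SF3B3 at chr16:70606086-70606106 (plus), POLR2H at chr3:184086251-184086271 (plus) and CIRBP at chr19:1272487-1272507 (plus).
MET: acagattGTGGGAGtaagtga
SF3B3: tatctctGTGGGAGgaaggag
POLR2H: agacacaGTGGGAGagctgaa
CIRBP: aaagattGTGGGAGcttcgct

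C11orf31, the selenoprotein gene, had a Cy5 signal of 822 with the 5p strand and 2808 with the 3p strand, against mocks of 2828 and 2950 (difference −1.77). The ATP13A3 signals were 234 and 841 around mocks of 479.7 and 530.5 (−1.84), and its second probe gave −0.96. UQCRC2, a core subunit of respiratory complex III, had 226 and 499 around mocks of 368 and 377 (−1.14), and BAG2, a co-chaperone of HSP70, had 42.6 and 122 with mocks of 121 and 104 (−1.52). MRPL12, a further mitochondrial ribosomal protein with a 5p match, had 105 and 231 with mocks of 265 and 271 (−1.14). In all 5 genes the 5p sample was below the mock and the 3p sample within 0.5 of it. BAG2 (−0.89) was no longer past 1.5 with normexp and an offset of 50, and the mean over the probes of ATP13A3 was −1.40.
MET, the receptor tyrosine kinase of hepatocyte growth factor, had 3793 with the 5p strand and 1315.5 with the 3p strand against mocks of 3158 and 3281.5 (1.53). For POLR2H, a subunit shared by RNA polymerases, the signals were 494 and 230.1 with mocks of 584 and 593 (1.10), and CIRBP, a cold-inducible RNA-binding protein, had 139 and 66.2 with mocks of 131 and 133 (1.08). The other measured probe gave 0.60 in POLR2H and 0.48 in CIRBP. SF3B3, a subunit of the U2 spliceosomal particle, had 363 and 126 around mocks of 192 and 176 (1.53), with probes from 0.35 to 2.16. ADAM8, a membrane metalloprotease, had 86.8 and 40.8 with mocks of 40.1 and 40.0 (1.09), and its other measured probe gave 0.77. The 3p sample was the low one in MET, POLR2H and CIRBP, whereas in ADAM8 the 5p sample was high and the 3p sample at the mock level. MET was at 1.49 and SF3B3 at 1.23 with normexp and an offset of 50. Also past 1.5 were the dim genes SCML1 (14.1 and 65.7, −2.22) and B4GAT1 (15.1 and 48.2, −1.68) with a 5p match. With a 3p match, the dim GNPDA1 (20.7 and 6.68, 1.63) and the unnamed XLOC_l2_006595 (2.02) were past it on the higher side.

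The matches were also read on the miR-140 arrays in T24, as an unrelated pair of strands. There the median difference was −0.03 over 93 genes with the miR-532-5p match and −0.01 over 84 genes with the miR-532-3p match. In the other direction, the matches of miR-140-5p (AACCACT, 0.436% of probes) and miR-140-3p (CTGTGGT, 0.607%) gave medians of −0.09 over 67 genes and 0.06 over 119 genes on the miR-532 arrays, and −0.11 over 84 and 0.09 over 142 genes on their own arrays. These other seeds were chosen after the values of the miR-532 seeds had been seen. The shift of 0.36 and 0.41 in size was thus seen for the 2 seeds of miR-532 on the miR-532 arrays. The 6 medians given so far in this paragraph were 0.11 or less in size. On the miR-532 arrays the match of miR-199-3p gave a median of 0.003 over 66 genes. That of miR-125b-1-3p gave 0.19, larger than those 6 in size, over 5 genes.

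**Figure D4:**
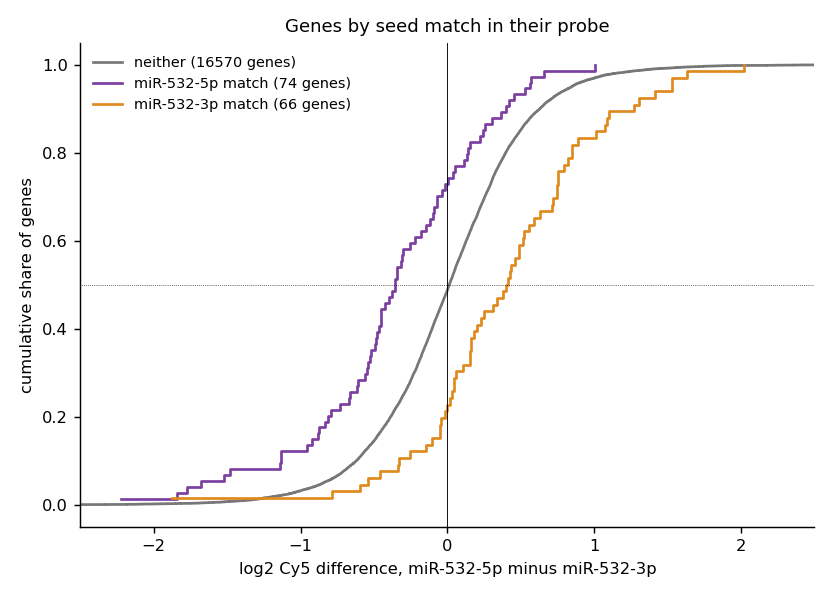
Cumulative share of genes (vertical axis) against the log2 Cy5 difference of miR-532-5p minus miR-532-3p (horizontal axis), for 74 genes with the 5p seed match in their probe (purple), 66 with the 3p match (orange) and 16570 with neither (grey). The purple curve crosses 0.5 at −0.36 and the orange one at 0.41, on either side of the grey curve.

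Among inflammatory cytokine genes, 5 of 13 measured members were lower with miR-532-5p past 1.5 (38.5%, against 0.76% of all genes), 0 were higher, and the median difference was −1.15 against 0.01 over all genes. With normexp and an offset of 50, 1 of the 13, CXCL1, was past 1.5 and the median was −0.63. CXCL8, the neutrophil attractant interleukin 8, had 31.6 with the 5p strand and 159 with the 3p strand around mocks of 61.5 and 60.2 (difference −2.33). CXCL1, a chemokine of the same family, had 284 and 1355 with mocks of 1197 and 1192 (−2.26). CXCL2 had 90.6 and 290.5 around mocks of 148 and 149 (−1.68), and its other probe gave −1.40. CSF2, which codes for the growth factor GM-CSF, had 69.1 and 248 with mocks of 208 and 215 (−1.84), and CCL2, a monocyte attractant, 15.2 and 51.2 (−1.75). CXCL1 and CSF2 were low with the 5p strand and near the mock with the 3p strand, whereas CXCL8 and CXCL2 were above the mock with the 3p strand. IL6, a pleiotropic cytokine, did not pass, at 164 and 441 (−1.43), and CXCL5 (0.36) and LIF (0.21) were above 0.

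The HIF target genes, of interest in a line without VHL, leaned the other way in part: 4 of 22 were higher with miR-532-5p past 1.5 (18.2%, against 0.796% of all genes), 0 were lower, and the median was 0.28. Besides NDRG1 these included EGLN3, a prolyl hydroxylase of HIF, with 115 and 32.7 around mocks of 50.5 and 52.2 (1.81), and CA12, a carbonic anhydrase, with 288 and 89.3 against mocks of 261 and 272 (1.69). CA12 was low with the 3p strand, and EGLN3 was above the mock with the 5p strand and near it with the 3p strand. With normexp and an offset of 50, 1 of the 22 was past 1.5, NDRG1, and with median centring the list median was 0.15. ANGPTL4, an inhibitor of lipoprotein lipase, had 11922 and 4722 (1.34), short of the bound. Past 1.0, 7 of the 22 were higher and 1 was lower, against 3.13% and 3.21% of all genes. The other classical targets were mixed. SLC2A1 had 2976 with the 5p strand and 1585.5 with the 3p strand (0.91), and PFKFB3 had 275 and 116. PGK1 of glycolysis (−0.03) and the peptide hormone gene ADM (0.00) hardly differed, and VEGFA was at 0.27. CCND1, cyclin D1, was at −1.06.

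Cell cycle genes were shifted by less than the bound but in nearly the same direction throughout. Of 19 S phase genes, 18 were below 0 and the median was −0.60, and of 24 mitosis genes, 23 were below 0 and the median was −0.63, while 0 members of either list passed 1.5 in either direction. Among genes with neither seed match 48.7% were below 0, the share to set beside such counts by sign here and below. Past 1.0, 4 S phase genes were lower and 1 was higher, and 4 mitosis genes were lower and 0 higher, against 3.21% of all genes lower and 3.13% higher. CCNE1, cyclin E1, had 106 and 284 around mocks of 168 and 160.0 (−1.43), and TYMS, thymidylate synthase, had 754 and 1595 with mocks of 1616 and 1616.5 (−1.08). TOP2A, topoisomerase II alpha, had 118 and 318 around mocks of 271 and 263 (−1.44), and CDK1, the mitotic kinase, had 243 and 514 around mocks of 379 and 388 (−1.08). RRM2, a subunit of ribonucleotide reductase, was the exception past 1.0, with 59.0 and 29.2 against mocks of 93.5 and 97.9 (1.01). Over its own mock, the median of the mitosis genes was −0.41 with the 5p strand and 0.05 with the 3p strand, and that of the S phase genes −0.57 and −0.34. The CDK inhibitors, which brake the cycle, had a median of −0.15 over 6 genes, with none past 1.0. CDKN1C had 213 with the 5p strand and 317 with the 3p strand, both above mocks of 94.7 and 90.6.

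Members of the Hippo pathway stood apart from NF2 itself. Of 16 measured, NF2 alone was past 1.5 (6.25% higher, against 0.796% of all genes). Of the 16, 12 were below 0, with a median of −0.36 (−0.18 with normexp and an offset of 50). CYR61, named CCN1 in RefSeq and a target of the YAP coactivator, had 1840.1 with the 5p strand and 3929 with the 3p strand against mocks of 1705 and 1794 (−1.09). STK3, one of the core kinases, had 66.4 and 130 (−0.97), with its other probe at −0.36, and AMOTL2, another YAP target and regulator, had 402 and 620.3 (−0.63). In CYR61 the 5p sample was near the mocks and the 3p sample was high.

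Of 34 measured mitochondrial carriers of the SLC25 family, 3 were lower past 1.5 (8.82%, against 0.76% of all genes), 0 were higher and the median was −0.30, with 25 below 0. The 3 also passed with normexp and an offset of 50, where the median was −0.13. Over the 17 carriers with a signal of at least 100 on 1 array the median was −0.45. The other 2 adenine nucleotide translocators did not follow SLC25A5, with SLC25A4 at 50.8 and 55.2 (−0.12) and SLC25A6 at 4722 and 3970.5 (0.25). The 77 mitochondrial ribosomal protein genes held 1 gene on each side, MRPL18 and MRPL14 (1.30% each, against 0.76% and 0.796% of all genes). Their median was −0.09, so neither extreme was shared by the list.

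Among antioxidant genes that NRF2 controls, 14 of 15 were above 0, with a median of 0.39 and 2 higher past 1.5 (13.3%, against 0.796% of all genes). With normexp and an offset of 50 the median was 0.18 and 0 passed, with SLC7A11 at 1.03 and AKR1B10 lower still. AKR1B10, an aldo-keto reductase, had 111 and 30.0 with mocks of 137 and 131 (1.89), and SLC7A11, the cystine transporter, had 180 and 61.8 with mocks of 127 and 121 (1.54). Both were low with the 3p strand and within 0.3 of the mock with the 5p strand. TXNRD1, thioredoxin reductase, was the 1 gene below 0 (45.3 and 75.7, −0.74), and PIR, an iron-binding nuclear protein, was at 114 and 108 (0.08).
The integrated stress response genes, which overlap that list in SLC7A11, held 1 lower and 1 higher gene among 17. These are 5.88% each, against 0.76% and 0.796% of all genes. The list median of −0.10 changed sign with the filter on dim genes. CHAC1, a glutathione-degrading enzyme, had 23.3 with the 5p strand and 68.1 with the 3p strand against mocks of 26.9 and 27.8 (−1.55), so the 3p sample was the high one, but −0.68 with normexp and an offset of 50. ASNS, asparagine synthetase, had 573 and 1283 with mocks of 1306 and 1290 (−1.16).

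Of 22 interferon-stimulated genes 1 was higher past 1.5 (4.55%, against 0.796% of all genes). It was the dim RSAD2 with 24.3 and 7.32 (1.73), and the list median was 0.26. With normexp and an offset of 50, 0 passed and the median was 0.08. Over the 8 genes of the list with a signal of at least 100 on 1 array the median was 0.76. OASL, an oligoadenylate synthetase-like protein, had 121 and 45.7 with mocks of 121 and 124 (1.41), and BST2, the restriction factor tetherin, had 2215 and 1018 around mocks of 1266 and 1217 (1.12).
In the TGF-beta list 13 of 15 genes were above 0, with a median of 0.25. The 3 inhibitors of differentiation ID1, ID2 and ID3 lay at 0.82, 0.84 and 0.88, with ID1 at 1435 and 815 around mocks of 1043.5 and 1033. ITGB3 was the 1 integrin subunit of 12 past 1.5 (8.33%, against 0.796% of all genes). The integrin median was 0.39, but 0.10 with normexp and an offset of 50 and 0.09 without a filter on dim probes, and ITGB8 was at 24.1 and 67.6 (−1.49).
In the list of p53 targets and death receptors PERP was the 1 gene of 19 past 1.5 (5.26% higher, against 0.796% of all genes). The list median was 0.06 (−0.11 after subtraction of the mock difference), with the classical targets CDKN1A (0.03) and MDM2 (0.12) near 0. TNFRSF10D, a decoy receptor of the death ligand TRAIL, had 253 with the 5p strand and 480.2 with the 3p strand, both above mocks of 129 and 141 (−0.93).

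**Figure D5:**
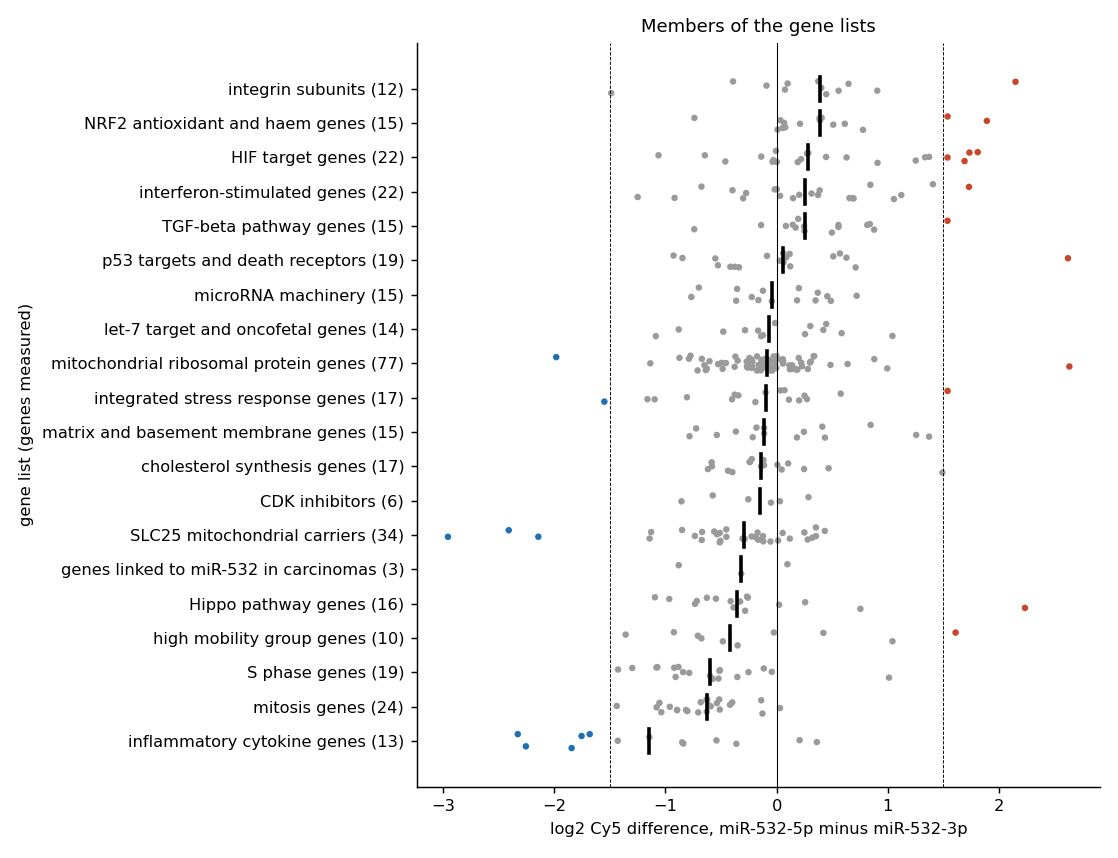
Each point is 1 measured gene of a list, placed by its log2 Cy5 difference of miR-532-5p minus miR-532-3p (horizontal axis), with lists ordered by their median (black bar), the number of genes in brackets and vertical scatter for legibility. Blue and red mark genes past 1.5, of which the cytokine list holds 5 on the lower side and the HIF list 4 on the higher side.

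The other lists held few or no genes past 1.5. Of 15 genes of the miRNA machinery 0 passed 1.5 or 1.0, and AGO2, the slicing Argonaute, was at −0.77. The matrix genes (15, median −0.11), the let-7 target genes (14, −0.07) and the cholesterol synthesis genes (17, −0.14) had none past 1.5 and medians near 0, of which the first 2 changed sign under other scalings. The high mobility group genes (10, −0.42) had HMGN1 alone (10% higher, against 0.796% of all genes). Of 5 genes linked to miR-532 in carcinomas, RUNX3 and AQP9 were not well above background on both arrays. NAP1L1, a histone chaperone, had 922 and 1149.7 (−0.32) at its brightest probe and −1.5 at its other, and ETS1, a transcription factor, 20.8 and 19.4 (0.10).

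For a gene above background in a single Cy5 channel a bound on the fold was taken. It is the bright normalized signal over the higher of the dim signal and the lowest signal well above background on the dim array. Where the dim signal was the higher, the bound is the plain ratio of the bright and dim signals and not a lower limit. Of the 43317 genes on the array, 1842 were above background with the 5p strand alone, 40 with a bound past 1.5. With the 3p strand alone there were 1072, 52 with a bound past 1.5. The arrays themselves differed, with 23348 probes well above background in Cy5 on the 5p array and 22647 on the 3p array. The lowest such signal was 4.64 on the 5p array and 5.26 on the 3p array. The cause of the unequal counts was not tested. ANXA10, an annexin, was 8.72-fold higher with the 5p strand by the plain ratio (47.1 against 5.40). PTPN22, a phosphatase of lymphocytes, was at least 5.06-fold higher. KIAA0125, C22orf24 and MYO15B followed with at least 3.48-, 3.22- and 3.20-fold. ABCA12, a lipid transporter, was at least 8.13-fold higher with the 3p strand (37.7 against 3.12), and SCML2, a Polycomb group protein, at least 5.07-fold. JPH1, a junctophilin, was at least 4.46-fold higher. NIN, a protein of the centrosome, and KAT2B, a histone acetyltransferase, were 4.54- and 4.39-fold higher by the plain ratio. All of these signals lie near the lower end of the scale.

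Several probes were available for 47 of the 260 called genes. In 22 of them all probes were past 1.0 in the same direction, and in 5 the probes differed in sign, so a call from the brightest probe of a gene is not always shared by its other probes. Of the 260 genes, 218 matched a RefSeq gene by accession and 37 were unnamed transcripts.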

How the data were processed

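RNA of 786-O cells given miR-532-5p or miR-532-3p (Cy5) and of mock cells (Cy3) was read on 2 of the 8 arrays of 1 slide, so slide and scan could not be tested as batches. Groups came from the treatment in the labels. The authors deposited the output of the scanner software (Agilent Feature Extraction 11.5.1.1 in its header), with spot and local background intensity on a linear scale, not normalized. The deposited log10 ratio of Cy5 over Cy3 was used as an alternative, and the deposited series table held the same log10 values (largest difference 0).

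Here, median background was subtracted from mean intensity. Control spots and outlier spots (175 and 146 on the 2 arrays) were left out, and spots of a probe were averaged. No spot was saturated. The 2 Cy5 channels were quantile normalized over all probes, and the 2 Cy3 channels likewise. A probe was well above background when a share of at least 0.5 of its spots was flagged so, and a gene was represented by its probe of highest mean log2 signal. Over 300 probes with repeated spots, the median SD of the log2 Cy5 signal among spots of an array was 0.146 (5p) and 0.158 (3p). Ratios over the mock used normexp (offset 50) and loess in limma 3.58.1 with R 4.3.3. Other steps used Python 3.11.15 and pandas 2.3.3, and the code was tested on simulated data.

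Named were 17 genes of prior interest, the 15 lowest and 15 highest named genes by log2((5p + 50)/(3p + 50)), up to 4 genes of each of 20 lists, 5 genes with a seed match per strand and 5 bounds per side. Of each list, a few of these are given, and some are not reported here. DDAH1, ZMPSTE24, TERT, VIM, PTPRC, PGK1, ADM, VEGFA, CCND1, RRM2, IL6, CXCL5, LIF, CCL2, EGLN3, SLC25A4, SLC25A6, RSAD2, MDM2, CDKN1A, DSCC1, ERO1L, CTSO, SCML1, B4GAT1, GNPDA1 and XLOC_l2_006595 were named after their values were seen. So were CD3E, CD14, SLC2A1 and PFKFB3. The genes, lists and tests were chosen with earlier results of these data known. The bound of 1.5 is the size at which the study selected genes lowered by another miRNA, used here in both directions. With 1 array per group there is no p-value. Alternatives changed the background correction, the normalization, the signal, the use of the mock, the filter on dim probes, the probe of a gene, the bound and the kind of seed match. Gene names are those of the array, with RefSeq names (GRCh38.p14) by accession.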

Additional observations from a re-analysis of the deposited data

How the results depend on the processing

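No paired analysis was possible because there is 1 array per treatment. In the order lower, higher and both, the counts past 1.5 were 127, 133 and 260. They became 24, 17 and 41 with normexp and an offset of 50, 41, 44 and 85 without background correction, 60, 65 and 125 with a signal of at least 100 on 1 array, and 1235, 1828 and 3063 without a filter on dim probes. At a bound of 1.0 they were 537, 523 and 1060. The offset and the signal minimum act on dim genes by construction, and the cause of the other shifts was not tested. Under the other alternatives the counts stayed within 1.5 times, also without the genes whose mocks differ by over 0.5 (126, 128 and 254), an alternative chosen after seeing the data. The median of genes with a 5p seed match (−0.36) became −0.11 with normexp and an offset of 50, −0.70 for a match of 8 letters, −0.15 for 6 letters, −0.041 on the reverse strand of the probe, and 0.002 without a filter. That of genes with a 3p match (0.41) became 0.13 with the offset of 50, 0.24 without background correction, 0.16 for 6 letters and 0.12 on the reverse strand. RBL1 changed sign to −1.65 after subtraction of the mock difference and to −1.82 with the scanner's ratios or the series table. No other named gene past 1.5 changed sign. The list medians of the p53, matrix, let-7, miRNA machinery and integrated stress response genes, all within 0.15 of 0, changed sign under some alternatives, and those of the other 15 lists did not. Of 43 named genes past 1.5, 32 passed with normexp and an offset of 50, and 37 or more under each of the other alternatives. The number of arrays limits every value. In genes with a mean signal below 20 the SD of the mock difference was 0.25.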

Other observations

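Small nucleolar and Cajal body RNAs, a list chosen after their values were seen, were read because 2 of them were among the 15 highest genes. Of 306 on the array 195 were measured, and 6 were higher with miR-532-5p past 1.5 (3.08%, against 0.796% of all genes) and 0 were lower. The 6 were SCARNA22, SNORA67, SCARNA20 (63.4 with the 5p strand and 12.4 with the 3p strand, difference 2.35), SNORA2B (76.1 and 20.3, 1.91), SNORA48 (174 and 48.8, 1.84) and SCARNA16 (98.9 and 28.0, 1.82). All 6 belong to the SNORA and SCARNA names, of which 84 of 103 were above 0 with a median of 0.34. Of the 92 SNORD genes, 40 were above 0 and the median was −0.03. The medians of the mock difference were −0.02 and −0.05. No test was made, and whether these probes detect the small RNA or a longer transcript that holds it was not tested.

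By the plain difference, without the offset used for ranking, dim genes come first: DSCC1, a protein of sister chromatid cohesion, had 9.70 with the 5p strand and 99.3 with the 3p strand against mocks of 90.6 and 89.4 (−3.36). ERO1L, an oxidase of the endoplasmic reticulum, had 28.7 and 183 against mocks of 147 and 162 (−2.67). CTSO, a cathepsin, had 60.8 and 8.05 around mocks of 21.4 and 26.3 (2.92).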
